A study of Rattus norvegicus with 192 samples.

Results

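The 5 genes studied here belong to the tumour necrosis factor (TNF) system and were followed in rats that had breathed phosphine. They are the receptor genes Tnfrsf11b, Tnfrsf12a, Tnfrsf1a and Tnfrsf1b, and Tnf itself. The members were those of the 5 genes that the platform annotation names alone on a feature (probe set) of the array, and all 5 were present, on 6 of the 31042 probe sets tested. Tnf had 2 probe sets and each receptor had 1, and the brighter Tnf probe set stands for the gene below. Tnfrsf11b and Tnfrsf12a were chosen by measured values, their phosphine minus air differences at 1 h in the brain stem and in the kidney, and these 2 differences and the changes over time of which they are a part are described without a test.

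Adult male Sprague-Dawley rats were exposed in a whole-body chamber for 25 min, either to phosphine (PH3) at 660 ppm, which is 16500 ppm × min and 0.71 times the median lethal product of concentration and time, or to air. Both groups were killed under ketamine and xylazine at 1, 3, 6 or 24 h after exposure. Lung, heart, kidney, blood, olfactory bulb and brain stem were read on Affymetrix 3′ arrays, 192 in all. The 48 groups held 4 rats each, apart from the Air rats for olfactory bulb at 1 h, of which there were 5, and those for blood at 24 h, of which there were 3. The dose was the same for all exposed rats, the exposed animals were of 1 sex and 1 stock, and each tissue was taken whole, so that its arrays mix cell types. Levels below are log2 intensities and effects are PH3 minus Air of the same time on that scale, ± the SE of a limma fit across all probe sets of a tissue. A probe set was called where the p adjusted over all 31042 was under 0.05.

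TNF is a cytokine of activated immune cells that binds a receptor found on most cells, encoded by Tnfrsf1a, and a second receptor found mostly on immune and endothelial cells, encoded by Tnfrsf1b. Tnfrsf12a encodes Fn14, the receptor of the ligand TWEAK (Tnfsf12), a small membrane protein known to be induced in injured tissue, the kidney tubule included. Tnfrsf11b encodes osteoprotegerin, which lacks a membrane anchor: it is secreted and acts as a decoy that holds the ligand RANKL (Tnfsf11) away from its receptor RANK (Tnfrsf11a), and it is made in bone, vessel walls and several organs. Receptors of this family signal through TRAF adaptors to NF-kB, and some through a death domain to caspase-8.

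The arrays were checked as a whole before the results. Of 30 tissue markers measured, 27 were highest in their own tissue; the exceptions were Slc34a1 of the kidney and Slc6a5 of the brain stem, both highest in blood, and Snap25, which read 12.69 in both nervous tissues. No array was most like an array of another tissue. Of 166 arrays whose rat has another tissue, 161 were matched best by their own rat. The others were the blood of Rat341 (PH3, 24 h), the heart of Rat370 (Air, 3 h) and the brain stem, heart and lung of Rat368 (PH3, 3 h). The heart of Rat370 had an r of -0.024 with its own rat. Those arrays of Rat368 were matched best by Rat363, a rat of the same exposure and time with only a kidney array. That kidney array was in turn matched best by Rat368. A further check set each array against the median profile of its tissue, over all groups, and 6 arrays stood apart. They were the brain stem and blood of Rat341 (PH3, 24 h), the heart of Rat357 (PH3, 1 h), the lung of Rat355 (Air, 3 h) and the olfactory bulbs of Rat381 and Rat391 (PH3, 6 h). An array that stands apart in this way can differ together with its whole group. An index of RNA quality, the mean 3′ minus 5′ difference of the Gapdh and beta-actin control sets, overlapped between PH3 and Air in every comparison but the lung at 3 h. There it was 0.178 ± 0.0651 (SD, n = 4) in PH3 against 0.445 ± 0.0776 (SD, n = 4) in Air. At 1, 6 and 24 h lung Air read 0.217, 0.191 and 0.139, and lung PH3 0.181, 0.254 and 0.157. The Air lungs at 3 h were thus the group with the high index.

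The air-exposed rats show where the 5 genes are read without phosphine. Tnfrsf1a, the receptor of most cells, was highest in lung at 9.29 ± 0.119 (SD, n = 16), then heart at 8.49, kidney at 8.29 and blood at 8.12, and lowest in olfactory bulb at 7.24 and brain stem at 6.72. Its lung arrays lay above all others, and olfactory bulb and brain stem lay apart from each other and below the rest, while the neighbours heart, kidney and blood overlapped. Tnfrsf1b, the receptor of immune cells, was highest in blood at 6.99 ± 0.397 (SD, n = 15) and lung at 6.23 ± 0.289 (SD, n = 16), whose ranges overlapped. It followed at 4.54 in heart, where 4 of 23 sets of nonspecific control probes read as high, and at 4.38 in kidney. In olfactory bulb at 3.29 and brain stem at 3.19, 5 of the 23 sets read as high.

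Osteoprotegerin had another order. Tnfrsf11b was highest in lung at 8.18 ± 0.208 (SD, n = 16) and kidney at 8.12 ± 0.149 (SD, n = 16), then brain stem at 7.56, olfactory bulb at 6.97, heart at 5.87 and blood at 4.08, and each neighbour in that order overlapped the next. In blood 10 of the 23 control sets read as high as Tnfrsf11b, so its blood values are close to background. Tnfrsf12a was highest in heart at 7.16 ± 0.639 (SD, n = 16), followed by kidney at 6.97, blood at 6.66, lung at 6.30, brain stem at 5.73 and olfactory bulb at 4.54 ± 0.312 (SD, n = 17), again with every neighbour overlapping. Tnf was highest in blood, at 5.06 ± 0.403 (SD, n = 15), and elsewhere lay between 3.11 in brain stem and 3.77 in heart. In blood 8 control sets read as high (9 for its second probe set), and in the solid tissues 4 to 6, so Tnf lies near background in all 6 tissues, blood included. Which arrays the authors normalized together is not stated, and array medians ran from 4.98 in heart to 5.42 in olfactory bulb, so these orders are given as a description.

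**Figure D1:**
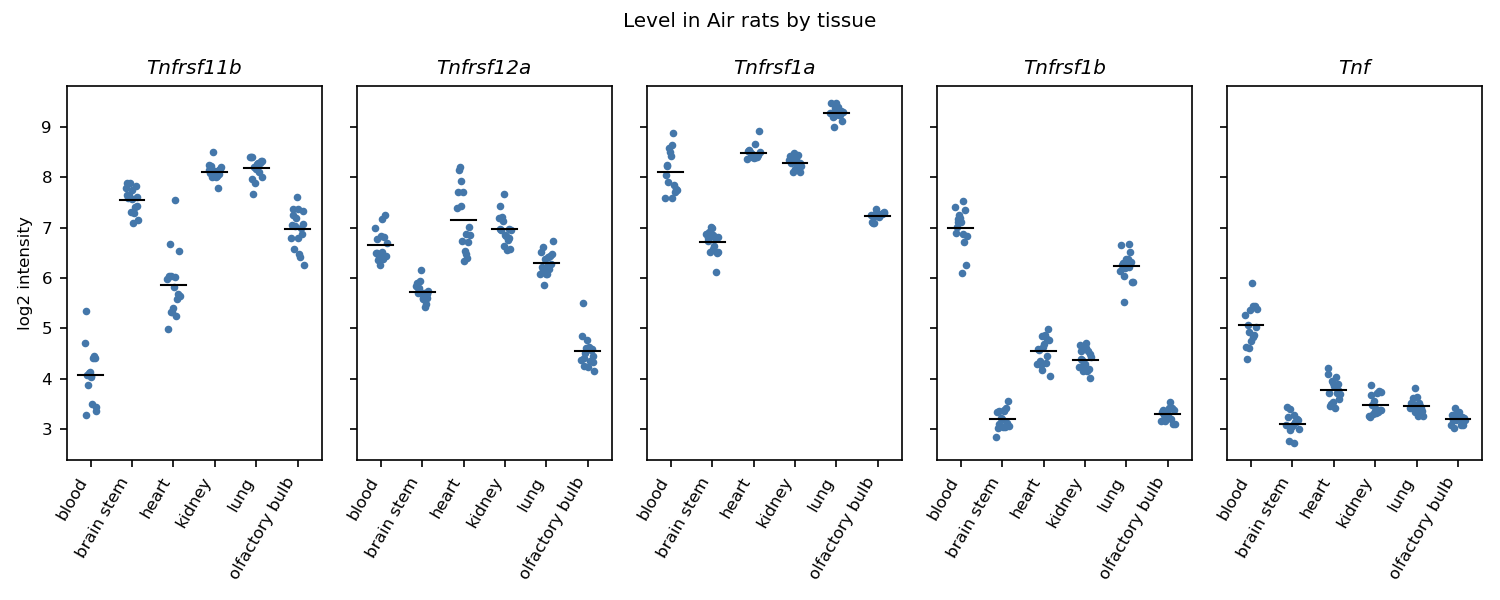
Log2 intensity (y axis) of the 5 genes in the Air arrays of 6 tissues (x axis), 1 point per array and a bar at the mean, all 4 times together. Tnfrsf1a is highest in lung at 9.29, Tnfrsf1b in blood at 6.99, and Tnf in blood at 5.06, with control sets that read as high as Tnf in every tissue.

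No difference between the times in Air rats passed the test for these genes. Of 30 F tests across the 4 Air groups, limma called 0, and 3 had an unadjusted p under 0.05. Over all probe sets the same test called 12.2% in lung, 7.8% in brain stem, 1.39% in olfactory bulb, 0.548% in heart, 0.00322% in kidney and 0% in blood. The widest Air range of the 5 genes was Tnfrsf12a in the heart, 7.86 at 1 h and 6.56 at 6 h, with an adjusted p of 0.425.

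In the brain stem, osteoprotegerin was low 1 h after phosphine, and PH3 and Air rats overlapped at 3 h. The 4 Air rats at 1 h read 7.80, 7.66, 7.88 and 7.59 for Tnfrsf11b, and the 4 PH3 rats read 6.00, 6.28, 6.60 and 5.91. All PH3 arrays lay below all Air arrays of that time, and also below all 16 Air arrays of the tissue, the lowest of which was 7.09. The means of 7.73 and 6.20 differ by -1.53 ± 0.157 (95% interval -1.86 to -1.21), a level 0.345 times that in Air. This is the difference that chose the gene, and 0.306% of all probe sets were called in that comparison.

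By 3 h the groups could not be separated. At 3 h the Air rats read 7.66, 7.88, 7.31 and 7.75 and the PH3 rats 7.69, 7.78, 7.39 and 7.67, an effect of -0.02 ± 0.157 with an interval of -0.34 to 0.31. At 6 h the effect was 0.30 ± 0.157 (-0.02 to 0.62), with Air at 7.58, 7.09, 7.29 and 7.41 and PH3 at 7.47, 7.75, 7.34 and 8.01. The 6 h groups overlapped, and the interval ends just below 0.

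At 24 h the brain stem arrays of PH3 rats were on the other side. They read 7.91, 8.17, 8.10 and 7.99, and the Air rats read 7.83, 7.44, 7.62 and 7.16. All 4 PH3 arrays lay above the 4 Air arrays and above all 16 Air arrays of the tissue, which reach 7.88. The effect of 0.53 ± 0.157 (0.21 to 0.85) did not pass the test (adjusted p = 0.44), and it was 0.55 with an adjusted p of 0.473 without the brain stem of Rat341, which stood apart. Of all probe sets, 0.0161% were called in the brain stem at 3 h, 0% at 6 h and 0.00322% at 24 h.

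**Figure D2:**
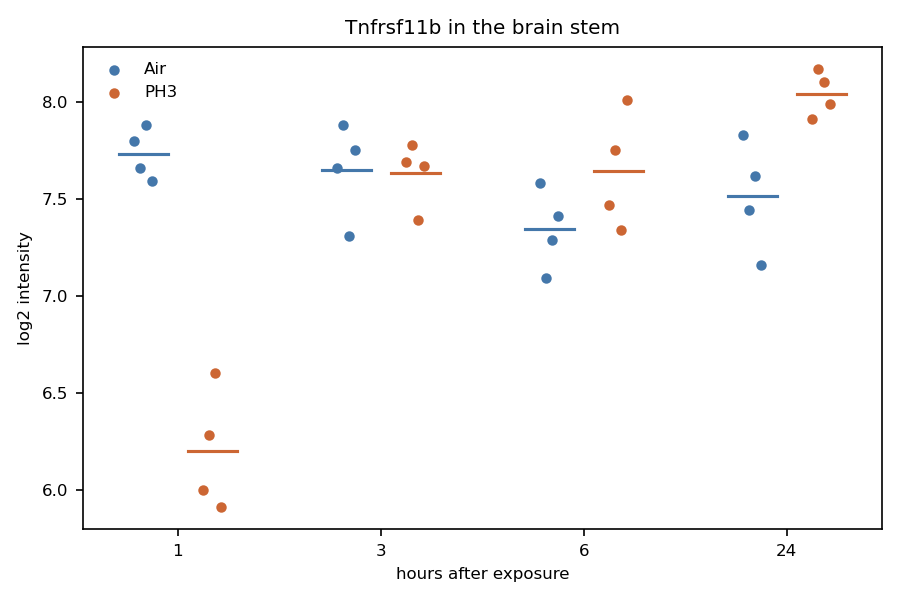
Log2 intensity of Tnfrsf11b in the brain stem (y axis) by hours after exposure (x axis), 1 point per rat, a bar at the mean, Air in blue and PH3 in orange. The 4 PH3 rats lie between 5.91 and 6.60 at 1 h, overlap the Air rats at 3 and 6 h, and lie between 7.91 and 8.17 at 24 h.

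Markers of vessel walls and of the coverings of the brain read lower in the brain stem at 1 h, beside the low Tnfrsf11b, and also at 3 h, when Tnfrsf11b had an effect of -0.02. Of the mural cell markers, genes of smooth muscle and pericytes, 7 of 8 were lower after PH3 at 1 h, with a median effect of -0.32, 0 called by limma and 4 at an unadjusted p under 0.05. Their mean level was 6.32 to 6.99 in Air arrays and 6.05 to 6.40 in PH3 arrays, and the largest effects were Myh11 at -0.82 ± 0.294 (adjusted p = 0.481) and Tagln at -0.81 ± 0.285 (adjusted p = 0.474), both proteins of the contractile apparatus. None of these markers is at 0 on this scale. All 9 fibroblast and meningeal markers were lower too, with a median of -0.48, 0 called (1 at an unadjusted p under 0.05), and mean levels of 7.25 to 7.79 in Air and 6.73 to 7.67 in PH3. Of the endothelial markers 8 of 10 were lower, with a median of -0.18, 0 called (3 at an unadjusted p under 0.05), and mean levels of 6.93 to 7.27 against 6.87 to 7.03. Over all probe sets 6.51% had an unadjusted p under 0.05 in that comparison.

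At 3 h the medians of the first 2 lists were further below 0 than at 1 h. All 8 mural markers were lower, with a median of -0.50 (6.51 to 7.04 in Air, 6.27 to 6.53 in PH3), and 8 of 9 fibroblast and meningeal markers, with a median of -0.70 (7.71 to 8.12 in Air, 6.46 to 7.62 in PH3), while 6 of 10 endothelial markers were lower, with a median of -0.09 (7.10 to 7.34 in Air, 7.02 to 7.18 in PH3). Limma called 0 of them, and 4, 3 and 3 had an unadjusted p under 0.05, beside 6.11% over all probe sets. The Tnfrsf11b groups overlapped at that time, and no test related these markers to Tnfrsf11b. At 6 h the medians were 0.13, 0.08 and 0.04, with 0 called and 0 at an unadjusted p under 0.05, beside 2.91% over all probe sets.

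The same lists at 24 h split. All 10 endothelial markers were higher, with a median of 0.29 (6.80 to 7.11 in Air, 7.03 to 7.56 in PH3), and all 8 mural markers were higher, with a median of 0.23 (6.36 to 6.63 in Air, 6.39 to 7.43 in PH3), while 8 of 9 fibroblast and meningeal markers were lower with a median of -0.19 (7.88 to 8.46 in Air, 6.96 to 9.20 in PH3); limma called 0 of them, and 4, 3 and 2 had an unadjusted p under 0.05. Over all probe sets 7.79% had an unadjusted p under 0.05 at 24 h. The part of these cells in the Tnfrsf11b values was not tested. In whole tissue, fewer cells of a type and less RNA per cell cannot be told apart.

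The partners of osteoprotegerin differed in the brain stem. Tnfrsf11a, which encodes RANK, rose at 1 h from 6.45 to 7.16, by 0.71 ± 0.151 (adjusted p = 0.0273), and its effect at 3 h was 0.62 ± 0.151 (adjusted p = 0.33). It was 0.02 at 6 h and -0.07 at 24 h. The ligand Tnfsf11 was near background in all 6 tissues, between 2.99 in olfactory bulb and 3.52 in blood, with 5 to 11 of 23 control sets as high, so a change of RANKL could not be read here.

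Outside the brain stem at 1 h, Tnfrsf11b was not called in any of 23 comparisons, 3 of which had an unadjusted p under 0.05. Its effects in the kidney, where the level in Air is high, ran from -0.37 ± 0.163 at 24 h (adjusted p = 0.78) to 0.21 ± 0.163 at 6 h. In the lung they ran from -0.26 ± 0.13 at 1 h to 0.29 ± 0.13 at 3 h (adjusted p = 0.165), and the lung at 3 h is the comparison in which RNA quality differed between groups. The olfactory bulb, the other nervous tissue, had effects of -0.34 ± 0.255 at 1 h and 0.55 ± 0.269 at 6 h, with intervals of -0.86 to 0.19 and 0.00 to 1.10. Its 1 h interval does not reach the -1.53 of the brain stem; the difference between the tissues was not tested. Heart effects lay between -0.20 and 0.48 with SEs of 0.518, so changes of up to 1 log2 unit either way were not detectable there.

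The gene of Fn14 read higher after phosphine in the kidney, the lung and the heart at the earliest time. Of these differences the lung one was called, the heart one was not, and the kidney one chose the gene. In the kidney at 1 h the Air rats read 7.19, 7.44, 6.97 and 6.95 for Tnfrsf12a and the PH3 rats 9.02, 9.07, 8.25 and 8.97. Every PH3 array was above every Air array of the tissue. The means of 7.14 and 8.83 differ by 1.69 ± 0.239 (1.20 to 2.18), which is 3.23-fold; this difference chose the gene and carries no test, and 2.35% of all probe sets were called in that comparison.

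The kidney at 3 h gave a test of arrays that the choice did not use. Its spread was estimated over all kidney groups, those at 1 h included, so the test is not fully separate from the choice. The Air rats read 7.21, 7.13, 6.64 and 7.67 and the PH3 rats 8.15, 8.68, 9.11 and 8.31. All 4 PH3 arrays lay above all 16 kidney Air arrays, which reach 7.67. Tnfrsf12a rose by 1.40 ± 0.239 (0.91 to 1.89), 2.64-fold, with an adjusted p of 0.0041 in limma, where 0.303% of all probe sets were called. The highest value, 9.11, is that of the array labelled Rat363. In a fit of these 2 groups alone the adjusted p was 0.173, and over all alternatives tried it ran from 1.04e-05 to 0.173.

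The kidney effect was smaller at 6 h and near 0 at 24 h. At 6 h the PH3 rats read 7.81, 7.30, 6.91 and 7.65 and the Air rats 6.85, 6.84, 6.56 and 6.75, so the groups did not overlap, but the effect of 0.67 ± 0.239 (0.18 to 1.16) was not called (adjusted p = 0.586, with 0.0161% of all probe sets called). At 24 h it was 0.05 ± 0.239 (-0.44 to 0.54), with 0% called over all probe sets. Of the PH3 rats, 3 then read 6.62, 6.70 and 6.56, within the Air range of 6.58 to 6.97 or just below it, and Rat341 read 7.63.

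In the lung Tnfrsf12a rose at 1 h. The Air rats read 6.09, 6.51, 6.22 and 6.61 and the PH3 rats 7.35, 6.79, 7.41 and 7.35. The groups did not overlap, and all 4 PH3 arrays were above all 16 lung Air arrays, which reach 6.74. The rise was 0.87 ± 0.169 (0.52 to 1.21), 1.82-fold, with an adjusted p of 0.00187 in limma, where 4.24% of all probe sets were called. At 3 h the effect was 0.29 ± 0.169 (adjusted p = 0.293, with 9.89% of all probe sets called), and at 6 h and 24 h it was -0.09 and 0.01, with 0% called at both times.

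The 1 h rise in the lung lost its call in 1 alternative. With all tissues in 1 fit and the rat as replicate block, which gives every tissue the same spread, the effect stayed 0.87 with an adjusted p of 0.196, and over all alternatives the adjusted p ran from 2.75e-05 to 0.196. Whether the effect differs between the 4 times was tested in the lung, where the F test for Tnfrsf12a had an adjusted p of 0.0433 and called 4.82% of all probe sets. That call was lost in 20 of 32 fits that left out 1 array, where the adjusted p reached 0.0984, with the RNA index as covariate (adjusted p = 0.0772) and without the lung of Rat355, which stood apart (adjusted p = 0.0559). It was the one call among 28 such F tests of the 5 genes, with the 2 choosing tissues left out. The same test called 0.49% of probe sets in kidney, 0.116% in heart, 0.0709% in brain stem and 0% in olfactory bulb and in blood.

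The heart showed high values with a wide spread. At 1 h the Air rats read 7.39, 7.71, 8.15 and 8.21 for Tnfrsf12a and the PH3 rats 9.33, 9.55, 8.52 and 9.62. The groups did not overlap. The effect of 1.39 ± 0.467 (0.43 to 2.35), 2.62-fold, was not called (adjusted p = 0.178, with 0.915% of all probe sets called). It was 1.27 with an adjusted p of 0.451 without the heart of Rat357, which stood apart.

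Tnfrsf12a in the heart at 1 h was called in 2 alternatives. Against the 16 Air arrays of all times the effect was 2.10 with an adjusted p of 0.00201; Air hearts at 6 and 24 h read 6.34 to 7.01, below the Air hearts at 1 h. With the rat as replicate block the effect stayed 1.39, with an adjusted p of 0.00108. Over all alternatives the adjusted p of this result ran from 0.00108 to 0.451.

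Later hearts overlapped between groups. At 3 h the PH3 rats read 7.36, 8.22, 9.07 and 8.03, an effect of 0.71 ± 0.467, and 0.00644% of all probe sets were called. At 6 h they read 7.07, 6.49, 6.55 and 9.74, an effect of 0.91 ± 0.467, with 0% called over all probe sets. Without Rat391 at 9.74 the effect of Tnfrsf12a at 6 h was 0.15. At 24 h the effect was 0.46 ± 0.467, with 0.00644% called.

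**Figure D3:**
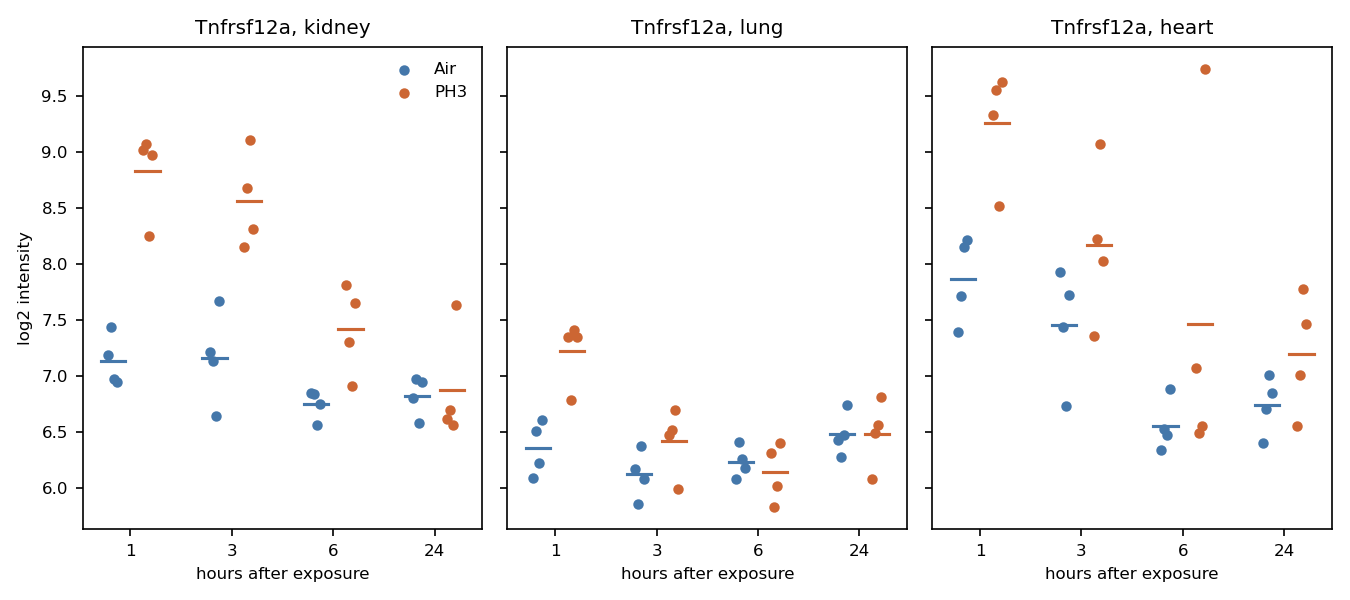
Log2 intensity of Tnfrsf12a (y axis) in kidney, lung and heart by hours after exposure (x axis), 1 point per rat, a bar at the mean, Air in blue and PH3 in orange. PH3 rats lie above Air rats in all 3 organs at 1 h and in the kidney also at 3 and 6 h, and single PH3 rats at 9.74 in heart at 6 h and 7.63 in kidney at 24 h lie above the others of their group.

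The same 4 rats gave the 1 h organs, and their order differed between organs. Rat351 was the lowest of the PH3 rats in heart at 8.52 and in kidney at 8.25, and the highest in lung at 7.41. It was also the PH3 rat with the highest Tnfrsf11b in the brain stem, at 6.60. Rat391, the outlying heart at 6 h, read 7.65 for Tnfrsf12a in its kidney, within the PH3 group.

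In the brain stem, the tissue of the Tnfrsf11b change, Tnfrsf12a effects lay between -0.05 and 0.08 with SEs of 0.112, and the widest 95% interval reached 0.31. In the olfactory bulb they lay between -0.29 and 0.27, and in blood between -0.43 and 0.07. None was called, so over its 23 comparisons outside the choosing one Tnfrsf12a was called higher in 2 and lower in 0. Across the 5 genes these were the 2 calls in 118 comparisons (1.69%), beside 0.752% over all probe sets and the 24 comparisons. An unadjusted p under 0.05 was found in 16 (13.6%), beside 7.7% over all probe sets.

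Markers of red cells read higher at 1 h in the kidney, lung and heart, beside the high Tnfrsf12a, but not in the kidney at 3 h, where Tnfrsf12a was called. All 6 red cell markers were higher in the kidney, with a median of 0.16 and 2 called (mean level 4.47 to 4.85 in Air and 4.87 to 5.26 in PH3). They were Alas2, the heme synthesis enzyme of red cells, at 1.38 ± 0.352 (adjusted p = 0.0295) and Ahsp, a haemoglobin chaperone, at 0.82 ± 0.217 (adjusted p = 0.0374). All 6 were also higher in the lung, with a median of 0.43 (4.85 to 5.65 in Air, 5.59 to 6.00 in PH3), and in the heart, with a median of 0.25 (5.08 to 6.18 in Air, 5.73 to 6.35 in PH3), and limma called 0 of them there (2 in lung and 1 in heart at an unadjusted p under 0.05). In the kidney at 3 h 2 of 6 were higher, with a median of -0.03 (4.62 to 4.73 in Air, 4.70 to 4.88 in PH3), 0 called and 0 at an unadjusted p under 0.05. Over all probe sets an unadjusted p under 0.05 was found at 1 h in 12.2% in kidney, 15.1% in lung and 11.9% in heart. The share in the kidney at 3 h was 10.0%. Limma called 2.35% of all probe sets in the kidney at 1 h and 0.303% at 3 h.

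Some markers of other cells were called at 1 h as well. Over all probe sets limma called 0.915% in heart, 2.35% in kidney and 4.24% in lung at that time. Of the 10 endothelial markers, Sox17, a transcription factor of arterial endothelium, rose in all 3 organs, by 1.25 ± 0.271 in the heart (adjusted p = 0.0187), 0.55 ± 0.148 in the kidney (adjusted p = 0.0404) and 0.72 ± 0.123 in the lung (adjusted p = 0.000435). In the lung Cldn5, a tight junction protein, also rose by 0.63 ± 0.0861 (adjusted p = 3.14e-05), and Kdr, a receptor of vascular growth factor, had -0.49 ± 0.107 (adjusted p = 0.00529). As a list, 6 of 10 were higher in heart, with a median of 0.18 (8.70 to 8.90 in Air, 8.68 to 9.58 in PH3) and 4 at an unadjusted p under 0.05, 9 of 10 in kidney, with a median of 0.03 (8.10 to 8.31 in Air, 8.20 to 8.36 in PH3), and 4 of 10 in lung, with a median of -0.08 (10.27 to 10.47 in Air, 10.31 to 10.49 in PH3). In the kidney at 3 h 6 of 10 were higher, with a median of 0.10 (7.82 to 8.30 in Air, 8.03 to 8.33 in PH3), 0 called and 2 at an unadjusted p under 0.05. Of the 9 neutrophil markers 1 was called, Il1r2, a decoy receptor of interleukin-1, at 0.61 ± 0.165 in the kidney (adjusted p = 0.0426) and 1.63 ± 0.243 in the lung (adjusted p = 9.97e-05). The medians of that list were 0.02 and 0.00, and 3 of the 9 in kidney and 1 in lung had an unadjusted p under 0.05.

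In the lung at 1 h all 6 platelet markers were higher, with a median of 0.27 and 1 called, the chemokine gene Ppbp (5.23 to 5.87 in Air, 5.40 to 6.20 in PH3), and all 5 B cell markers were lower, with a median of -0.66, 0 called and 3 at an unadjusted p under 0.05 (5.67 to 6.22 in Air, 4.80 to 5.62 in PH3). In blood itself, Tnfrsf12a had an effect of -0.01 ± 0.343 at 1 h, and 4 of the 23 control sets read as high as Tnfrsf12a in Air blood. The part of blood cells and of endothelium in the organ values was not tested.

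The promoter is shown for Tnfrsf12a because it is the member with calls in comparisons that the choice did not use. It is the stretch of 250 bases before the annotated start, chr10:13213649-13213898 on the minus strand of the GRCr8 assembly, from RefSeq; 4 of the 5 genes matched an entry, and Tnfrsf11b did not. The capitals mark GC boxes (GGGCGG or its reverse complement), the letters read by Sp1-type factors.
Tnfrsf12a promoter: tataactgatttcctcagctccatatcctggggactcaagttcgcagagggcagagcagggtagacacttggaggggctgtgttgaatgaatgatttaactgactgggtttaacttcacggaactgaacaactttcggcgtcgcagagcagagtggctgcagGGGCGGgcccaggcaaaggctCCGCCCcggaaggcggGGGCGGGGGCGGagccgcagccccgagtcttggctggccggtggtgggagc
It holds 4 GC boxes, all within 88 bases of the start, and 30.5% of 33469 promoter stretches of this length hold at least 1. The AP-1 letters TGACTCA, searched like all motifs here on both strands, are not in this window and are in 4.05% of the stretches. Also not in it are the cAMP response element TGACGTCA (1.59% of stretches), the letters TATAAA of the usual start site element (12.9%), and the consensus of NF-kB (6.33%) and of CArG elements (1.5%). Among the other members, the Tnf stretch holds 1 TATAAA and 1 GC box, the Tnfrsf1b stretch 3 GC boxes, of which some overlap, and 1 AP-1 match, and the Tnfrsf1a stretch none of the 6 motifs. A match is a description of letters and not of a bound factor.

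The genes whose pattern over the 24 comparisons was most like each receptor were ranked by Pearson's r of their PH3 minus Air effects, among 2208 genes called in at least 1 comparison. The effects of any 2 genes come from the same arrays, and the comparisons that chose the 2 receptors are among the 24, so r is a description. For Tnfrsf12a the nearest were Slc20a1, a phosphate transporter (r = 0.82), Ddit3, a transcription factor of the stress response (0.80), Hba-a3, a haemoglobin chain (0.80), Hbegf, an epidermal growth factor ligand (0.79), and Rlim, a ubiquitin ligase (0.79). In the kidney at 1 h their effects were 1.36, 1.24, 1.45, 1.20 and 0.91, beside 1.69 for Tnfrsf12a, and in the heart at 1 h they were 0.71, 0.55, 0.58, 0.91 and 0.33, beside 1.39. Ddit3 differed in the lung, with 0.01 at 1 h beside 0.87.

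For Tnfrsf11b the nearest were Car4, a carbonic anhydrase of capillaries (0.72), Hic1, a transcriptional repressor (0.62), Tagln of smooth muscle (0.60), Vegfc, a lymphatic growth factor (0.57), and Slc40a1, the iron exporter (0.57). In the brain stem at 1 h their effects were -0.90, -0.55, -0.81, -0.32 and -0.52, beside -1.53 for Tnfrsf11b. At 24 h they were 0.27, 0.12, 0.08, 0.08 and 0.23, beside 0.53. The values of r are lower than those of Tnfrsf12a.

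The receptors of TNF itself had their largest negative effects in blood, where limma called 0% of all probe sets at 1, 3, 6 and 24 h. For Tnfrsf1b at 1 h the Air rats read 7.42, 6.89, 7.01 and 7.18 and the PH3 rats 4.80, 6.21, 6.63 and 6.02. The groups did not overlap, and Rat343 at 4.80 was far below the other PH3 rats. The effect was -1.21 ± 0.379 (-1.99 to -0.43) with an adjusted p of 0.277, and it lay between -1.45 and -0.84 when 1 array was left out. At 3, 6 and 24 h it was -0.23, -0.35 and -0.50 with SEs of 0.379 to 0.41.

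Tnfrsf1a in blood was lower in some PH3 rats and not in others. At 1 h the PH3 rats read 6.62, 7.92, 7.89 and 6.47 and the Air rats 7.60, 8.05, 8.25 and 8.23, an effect of -0.80 ± 0.362 (adjusted p = 0.552). At 6 h the PH3 rats read 8.11, 7.18, 7.22 and 6.82 and the Air rats 7.59, 8.65, 8.88 and 7.85, an effect of -0.91 ± 0.362 (adjusted p = 0.998). The groups overlapped at both times. At 1 h the low rats were Rat343 and Rat357, and these 2 also had the highest Tnf of that group, 5.96 and 5.98 against 4.49 and 4.24 in Rat350 and Rat351.

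Tnf in blood was lower at 6 h in all 4 PH3 rats. The Air rats read 5.90, 4.83, 5.45 and 4.87 and the PH3 rats 4.74, 3.97, 4.53 and 4.22, which did not overlap, but the effect of -0.90 ± 0.374 (-1.66 to -0.13) was not called (adjusted p = 0.998). The second Tnf probe set gave -0.93 ± 0.327 (adjusted p = 0.998), with Air at 4.25, 4.73, 5.42 and 4.79 and PH3 at 4.18, 3.42, 4.33 and 3.54, and there the groups overlapped. At 1, 3 and 24 h the Tnf effects were 0.33, -0.22 and 0.24 with SEs of 0.374 to 0.404. A rise of Tnf in blood by more than 1.10 at 1 h lies outside the 95% interval.

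The block over rats changed the calls in blood. With all tissues in 1 fit and the rat as replicate block, Tnfrsf1b at 1 h had an adjusted p of 1.37e-05, Tnfrsf1a had 0.00103 at 1 h and 0.000525 at 6 h, and Tnf had 0.000707 at 6 h. That fit uses 1 spread for all tissues, and blood, with an SE of 0.379 for Tnfrsf1b against 0.0841 to 0.0886 in the olfactory bulb, is the wider. Over the other alternatives the adjusted p of Tnfrsf1b at 1 h ran up to 0.671, that of Tnfrsf1a at 1 h up to 0.857, and those at 6 h up to 1.

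Markers of white cells were lower beside these blood values. At 1 h the macrophage markers were lower in 8 of 10, with a median of -0.21, and their mean level was 6.39 to 6.49 in Air arrays and 6.04 to 6.17 in PH3 arrays, which did not overlap. Neutrophil markers were lower in 6 of 9, with a median of -0.28 (7.73 to 8.90 in Air, 6.91 to 8.52 in PH3). T cell markers were lower in 9 of 10, with a median of -0.28 (8.72 to 9.45 in Air, 8.62 to 9.23 in PH3), and B cell markers in 5 of 5, with a median of -0.77 (7.43 to 7.88 in Air, 6.37 to 7.87 in PH3). At 6 h all 9 neutrophil markers were lower, with a median of -0.55 (7.42 to 8.75 in Air, 6.83 to 7.79 in PH3). Limma called 0 of these markers. At an unadjusted p under 0.05 there were 3 macrophage, 1 neutrophil, 2 T cell and 3 B cell markers at 1 h and 0 of any of these lists at 6 h. At 3 h there were 2 neutrophil markers and 0 of the other lists. At 24 h there were 1 neutrophil, 1 T cell, 2 B cell and 0 macrophage markers. Directions are given here for all these lists at 1 h, but at 6 h for neutrophil markers alone. Over all probe sets the shares were 8.34% at 1 h, 2.93% at 3 h, 4.24% at 6 h and 6.5% at 24 h. The part of white cells in the receptor values was not tested.

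**Figure D4:**
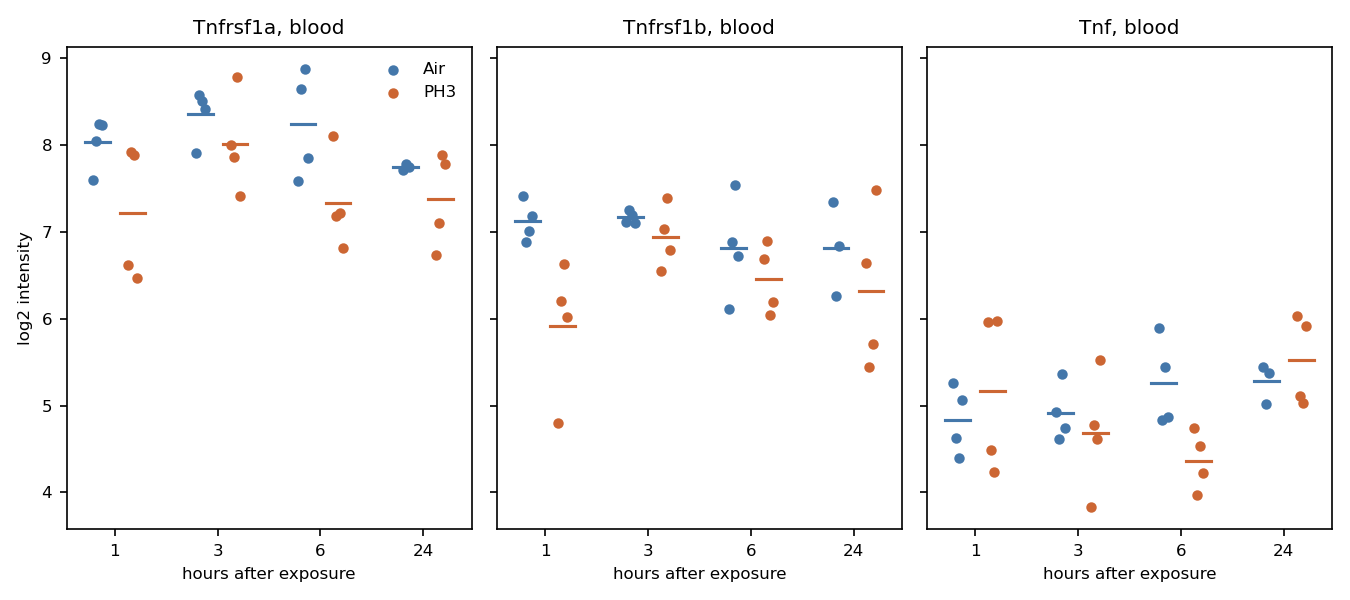
Log2 intensity of Tnfrsf1a, Tnfrsf1b and Tnf in blood (y axis) by hours after exposure (x axis), 1 point per rat, a bar at the mean, Air in blue and PH3 in orange; Air at 24 h has 3 rats. Tnfrsf1b at 1 h and Tnf at 6 h have PH3 rats below all Air rats of that time, and the other groups overlap.

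In the solid tissues the TNF receptors and Tnf had small effects. Tnf in all of these tissues, and Tnfrsf1b in heart, olfactory bulb and brain stem, lay near background, which limits what their small effects show. Tnfrsf1a ran from -0.16 to 0.48 over 20 comparisons, Tnfrsf1b from -0.38 to 0.38 and Tnf from -0.15 to 0.18. The second Tnf probe set ran wider, from -0.40 ± 0.133 in the heart at 1 h (unadjusted p = 0.00566, adjusted p = 0.174), where the groups overlapped, to 0.31 ± 0.133 in the heart at 24 h (adjusted p = 0.676), where all PH3 arrays lay above all Air arrays. The highest was Tnfrsf1a in the olfactory bulb at 6 h, where the Air rats read 7.22, 7.26, 7.25 and 7.27 and the PH3 rats 7.81, 7.58, 7.87 and 7.67. The groups lay apart, and the effect of 0.48 ± 0.107 had an unadjusted p of 0.000102 and an adjusted p of 0.473. Limma called 0.00322% of all probe sets in the olfactory bulb at 1 h and 0% at 3, 6 and 24 h.

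The bulbs of Rat381 and Rat391, the 2 highest for Tnfrsf1a, stood apart over all probe sets, and without them the effect was 0.37 with an adjusted p of 1. Against the Air arrays of all times it was 0.49 with an adjusted p of 0.0226, the lowest over all alternatives. Over all 24 comparisons each, limma called 0 for Tnfrsf1a (4 at an unadjusted p under 0.05), 0 for Tnfrsf1b (4) and 0 for Tnf (1, and 6 for its second probe set).

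**Figure D5:**
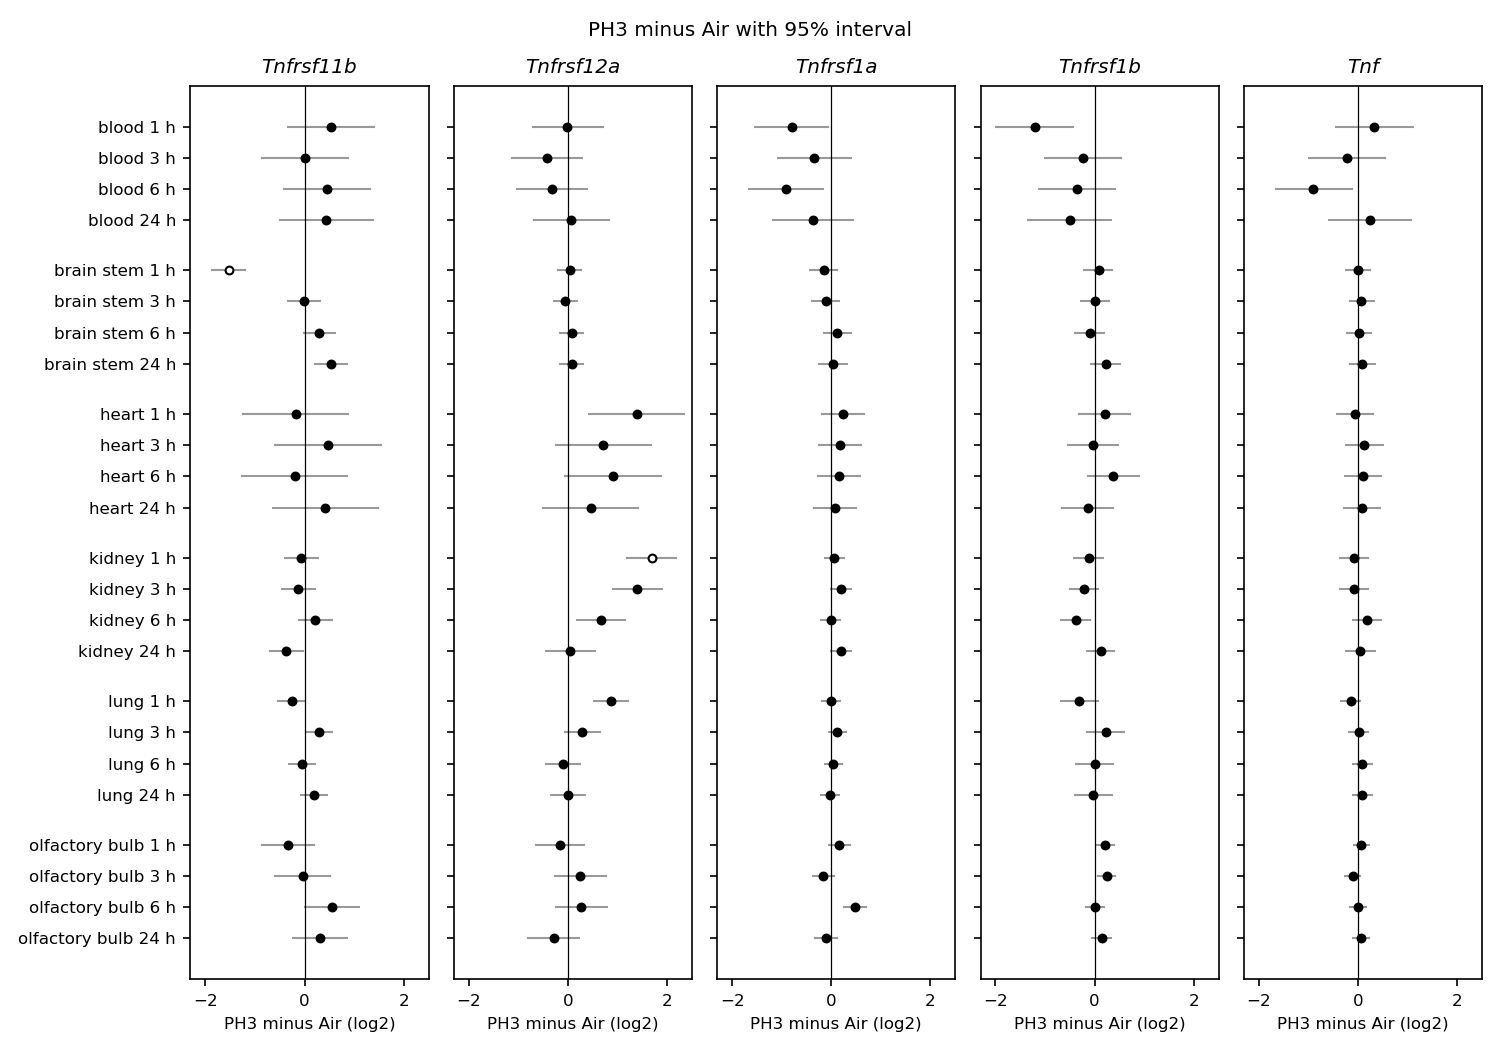
PH3 minus Air on the log2 scale (x axis) with its 95% interval for the 5 genes in 24 comparisons (y axis), a point per comparison. Open points are the 2 comparisons that chose Tnfrsf11b (-1.53) and Tnfrsf12a (1.69); the filled points farthest from 0 are Tnfrsf12a in kidney at 3 h (1.40) and heart at 1 h (1.39) and Tnfrsf1b in blood at 1 h (-1.21).

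The rest of the TNF system was read from lists of ligands, other receptors, signalling proteins and inhibitors, of which 55 genes were measured, with 18 calls in 1320 tests (1.36%), beside 0.752% over all probe sets. Of these calls 7 fell in the lung at 3 h, 12.7% of the 55 genes, where 9.89% of all probe sets were called. An unadjusted p under 0.05 was found in 136 tests (10.3%), beside 7.7% over all probe sets. Of 9 ligands in 216 comparisons 0 rose and 1 fell: Ltb, a lymphotoxin subunit of lymphocytes, by 0.46 on the log2 scale in the lung at 1 h (-0.46 ± 0.134, adjusted p = 0.0462), beside the lower B cell markers there. At an unadjusted p under 0.05 there were 7 higher and 7 lower (6.48%). TWEAK, the ligand of Fn14, was well read, at 8.85 in lung, 8.05 in heart and 7.57 in kidney in Air rats. Tnfsf12 was called in 0 of 24 comparisons, 2 of which had an unadjusted p under 0.05. Its effects at 1 h were -0.05 ± 0.106 in lung, -0.06 ± 0.134 in heart and -0.10 ± 0.133 in kidney, where its receptor was high.

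Of 14 other receptors in 336 comparisons 4 tests were called higher and 0 lower, and 21 and 14 at an unadjusted p under 0.05. These shares are 1.19% called and 10.4% at an unadjusted p under 0.05, beside 0.752% and 7.7% over all probe sets. Besides Tnfrsf11a in the brain stem, the calls were Tnfrsf21, the death receptor DR6, in the kidney at 1 h (0.60 ± 0.0894, adjusted p = 0.000157) and 3 h (0.44 ± 0.0894, adjusted p = 0.0199), and Fas, the receptor of Fas ligand, in the lung at 3 h (0.64 ± 0.152, adjusted p = 0.00888). The kidney calls of Tnfrsf21 fall at the 2 times of the high Tnfrsf12a values.

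Of 26 signalling proteins in 624 comparisons 5 tests were called higher and 3 lower, and 35 and 37 at an unadjusted p under 0.05. These shares are 1.28% called and 11.5% at an unadjusted p under 0.05, beside 0.752% and 7.7% over all probe sets. Of the 8 calls 4 fell in the lung at 3 h, 15.4% of the 26, where 9.89% of all probe sets were called. In the kidney at 1 h Cflar, an inhibitor of caspase-8, rose by 0.71 ± 0.162 and Traf5, an adaptor, fell by 0.58 on the log2 scale (adjusted p = 0.013 for both). In the heart at 1 h Traf2, an adaptor of both TNF receptors, had -0.54 ± 0.128 (adjusted p = 0.0338). In the lung at 3 h Traf1, an adaptor, had 0.99 ± 0.155 (adjusted p = 0.000725), Casp8, the caspase of death receptors, 0.51 ± 0.107 (adjusted p = 0.00389), and Tab2, a kinase partner, -0.28 ± 0.0834 (adjusted p = 0.0313). Ikbkb, a kinase that acts on NF-kB inhibitors, rose by 0.23 in the lung at 1 and 3 h (adjusted p = 0.0327 and 0.0202). The lung at 3 h is the comparison with the RNA index apart. White cell markers were higher there too: all 10 macrophage markers, with a median of 0.37 and 3 called (6.97 to 7.34 in Air, 7.42 to 7.72 in PH3), all 9 neutrophil markers, with a median of 0.68 and 4 called (5.20 to 6.11 in Air, 6.10 to 6.90 in PH3), and all 10 T cell markers, with a median of 0.40 and 2 called (5.90 to 6.26 in Air, 6.28 to 6.58 in PH3). Over all probe sets 9.89% were called in that comparison, and 24.5% had an unadjusted p under 0.05. The part of RNA quality and of these cells in the lung values was not tested.

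Of 6 inhibitors and shedding proteins in 144 comparisons 5 tests were called higher and 0 lower, and 10 and 5 at an unadjusted p under 0.05. These shares are 3.47% called and 10.4% at an unadjusted p under 0.05, beside 0.752% and 7.7% over all probe sets. Nfkbia, the inhibitor that holds NF-kB in the cytoplasm and is itself an NF-kB target, rose at 1 h in the brain stem by 1.29 ± 0.243 (adjusted p = 0.00898), in the lung by 0.97 ± 0.244 (adjusted p = 0.0178) and in the kidney by 0.78 ± 0.162 (adjusted p = 0.00572). Its heart effect at 1 h was 1.29 ± 0.359 (adjusted p = 0.0829). In the lung at 3 h Timp3, an inhibitor of the TNF-shedding protease ADAM17, had 0.60 ± 0.121 (adjusted p = 0.00317) and Nfkbib, a relative of Nfkbia, 0.26 ± 0.0693 (adjusted p = 0.0176). The lists were chosen with results of these arrays known, so their counts are a description.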

How the data were processed

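The values used are log2 intensities that the authors deposited, 1 for each probe set on each array. Per the submitters' processing notes they come from RMA, run in Partek, with versions not given in the sources used here. RNA was amplified from the 3′ end, per the labels' protocols. The table holds 31139 probe sets with values from 2.038 to 14.18. Without its 97 control sets, 31042 entered the tests, dim ones included, of which 19063 name 1 gene, 572 several and 11407 none here. Precision rests on the number of arrays per group, as arrays have no read depth.

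Each tissue had 1 limma fit (limma 3.58.1, R 4.3.3) with its 8 groups, in which PH3 and Air of a time were contrasted, two-sided, with Benjamini-Hochberg adjustment over all probe sets. F tests in these fits compared Air levels, or effects, between times. For a gene with several probe sets, the brightest over all arrays was used. The fit was tested on simulated data. The members and gene lists were chosen with earlier results of these data known. Named were the 5 members, up to 4 called genes of each list per comparison by smallest p, and the 5 genes most like each of 2 members; marker genes, ligands and effects named besides these were chosen after their values were seen. Control sets are the 23 bins of nonspecific probes. Rat numbers pair tissues of 1 animal, not PH3 with Air; the replicate block over rats had a consensus correlation of 0.0168. No array duplicated another (highest correlation 0.9957). Arrays of a group came from different rats, so p-values measure the spread between rats. An array stood apart where its distance from the median profile of its tissue, over all groups, had a robust z above 3.5. Such an array can therefore differ with its whole group.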

Additional observations from a re-analysis of the deposited data

Results flagged for a closer look

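An array far from the rest of its group was looked for in 235 groups of the 5 genes, and 14 had one; chance gives such an array in about 1 in 20 groups. For Tnfrsf11b they were heart Air at 24 h (6.54, the others 5.59 to 5.69), heart Air at 3 h (6.05, the others 5.33 to 5.41), kidney Air at 3 h (8.50, the others 8.01 to 8.08), lung Air at 1 h (7.96, the others 8.40 to 8.41), lung Air at 24 h (8.01, the others 8.29 to 8.33), lung PH3 at 3 h (8.44, the others 8.19 to 8.23) and lung PH3 at 6 h (7.79, the others 8.28 to 8.30). The 2 high Air values at 3 h, in heart and kidney, come from the same animal, Rat365. For Tnfrsf12a they were kidney PH3 at 1 h (8.25, Rat351), kidney PH3 at 24 h (7.63, Rat341) and lung PH3 at 1 h (6.79, Rat350). For Tnfrsf1a they were brain stem PH3 at 1 h (6.94, the others 6.57 to 6.60), heart Air at 6 h (8.67, the others 8.39 to 8.42) and olfactory bulb PH3 at 1 h (7.80, the others 7.11 to 7.19), and for Tnf lung Air at 3 h (3.81, the others 3.34 to 3.40).

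The effect on Tnfrsf12a in the lung differed between the 4 times by limma's F test (adjusted p = 0.0433), highest at 1 h. The effects on Tnfrsf11b in the brain stem lay on opposite sides at 1 and 24 h, with all 4 PH3 arrays below and above the Air arrays (-1.53 and 0.53, a difference of 2.06); the 1 h effect chose the gene, so this difference was not tested.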

How the results depend on the processing

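Of 176 tested results, 167 kept their side of the threshold under every alternative run, as did 2873 of 2904 alternative values, and no called value changed sign. The 2 calls among the 5 genes became 1 with the 2 groups of a comparison alone, 4 with Air arrays of all times as controls and 6 with the rat as replicate block over all tissues, where 1 spread serves all tissues. The 1 call of an effect that differs between times, Tnfrsf12a in lung, became 0 with the RNA index as covariate, 0 without the arrays that stand apart (an alternative chosen after seeing the data), and 0 to 1 when 1 array was left out. The 18 calls in the rest of the TNF system became 3 with the 2 groups alone, which leaves fewer samples for the spread. The Air levels between times gave 0 calls in each setting run. The cause of these changes was not tested. Leaving out 1 array moved Tnfrsf11b in brain stem at 1 h between -1.67 and -1.44, Tnfrsf12a in kidney at 1 h between 1.61 and 1.88 and at 3 h between 1.22 and 1.57, and in lung at 1 h between 0.78 and 1.01. The signal of Tnf, Tnfsf11 and, in blood, Tnfrsf11b lies near background, which limits what could be seen for them. The same holds for Tnfrsf1b in olfactory bulb, brain stem and heart, where 5, 5 and 4 of the 23 control sets read as high. In blood of PH3 rats at 1 h, 4 to 9 control sets read as high as Tnfrsf1b.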
